A study of Mus musculus with 6 samples.

Results

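Collagens are the triple-helical proteins that give connective tissue its strength, and 44 collagen genes were measured in macrophages sorted from mouse heart grafts. They were every gene whose symbol on the array has the form of a collagen chain (Col, a type number, a, a chain number) and that was the only gene of its probe set, 44 of 22180 genes in all. Where a gene had more than 1 such probe set, the one with the highest mean over all arrays stood for it. Col21a1 was not analysed here. The genes were split by textbook classes into 11 fibrillar chains, 8 basement membrane chains and 25 other chains.

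The grafts were BALB/c hearts in fully mismatched C57BL/6 recipients. In the treated group (mTORi-HDL, 3 arrays) the recipients had received mTORi-HDL nanobiologics, lipoprotein particles that carry an inhibitor of the growth kinase mTOR, at 5 mg/kg on days 0, 2 and 5. In the control group (untreated, 3 arrays) the recipients had been given no treatment and rejected their grafts. In both groups the infiltrating macrophages were sorted by flow cytometry on day 6 after transplantation. No group had received the particle without the inhibitor, so the 2 cannot be told apart, and the labels do not say whether a sample came from 1 recipient or a pool. The p-values below therefore measure the spread between these samples, which may be partly technical. The values are log2 expression, so a difference of 1 is a factor of 2, and precision is limited by there being 3 arrays a group.

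A collagen chain is made in the endoplasmic reticulum, where prolines and lysines are hydroxylated and 3 chains wind into a helix. Fibrillar chains (types I, II, III, V, XI, XXIV and XXVII) assemble into cross-banded fibrils after their end domains are cut off, and lysyl oxidases then cross-link them. Type IV chains instead keep their ends and form the sheet-like network of basement membranes, with types XV and XVIII at its border. In the heart, fibroblasts are the best known source of types I and III, while endothelial and mural cells make much of the type IV network. The other chains sit on fibril surfaces, form beaded filaments, anchor epithelia or span the cell membrane.

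One array stood apart from the rest, the one named mTORi-HDL 1. The SD over all its 41345 probe sets was 1.68, where each other array had 2.04 to 2.09. Its correlation with them over the same probe sets was 0.708 to 0.741, and theirs with each other 0.892 to 0.912. It held the highest value of the 6 arrays for 45.2% of all genes and for 28 of the 44 collagens. Results are therefore given with and without it. Of the macrophage markers chosen to check the sort, 11 were measured, and their mean log2 level lay between 6.51 and 8.53 on treated and between 6.59 and 7.12 on untreated arrays. Of the 11, 9 were higher over 6 arrays and 11 without mTORi-HDL 1, where 58.2% and 46.6% of all genes were higher. Of the same 11, 4 and 8 had groups that did not overlap, all in the higher direction. Over 6 arrays the groups did not overlap for 5.37% of all genes as higher and 5.53% as lower. Without mTORi-HDL 1 these shares rose to 9.75% and 12.5%. Fcgr1, the high-affinity Fc receptor, read 8.13, 8.02 and 9.12 on treated arrays 1 to 3 and 6.51, 7.23 and 6.01 on untreated ones. Csf1r, the receptor that macrophages need to survive, read 5.00, 8.75 and 9.08 against 8.19, 7.54 and 7.93, and was 1 of the 2 that were lower over 6 arrays. T cell markers were present too, with mean levels of 6.72 to 8.37 on treated and 9.40 to 9.46 on untreated arrays. Fewer cells of a type and less RNA per cell cannot be told apart in such bulk samples.

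The promoters of Col1a2 and Col3a1 (RefSeq, GRCm38.p6) are shown because both genes make fibril chains of the heart, and because the groups were apart at 1 probe set of Col1a2 and overlapped at Col3a1. Each run gives the 250 bases before the start of transcription, 5′ to 3′ on the plus strand. Capitals mark GGGCGG, a core motif that Sp1 family factors bind. They also mark TATAAA, which the basal transcription machinery binds. Both strands were searched for each motif, and the 2 motifs cannot overlap each other. Col1a2 lies at chr6:4505368-4505617 and Col3a1 at chr1:45311288-45311537.
Col1a2: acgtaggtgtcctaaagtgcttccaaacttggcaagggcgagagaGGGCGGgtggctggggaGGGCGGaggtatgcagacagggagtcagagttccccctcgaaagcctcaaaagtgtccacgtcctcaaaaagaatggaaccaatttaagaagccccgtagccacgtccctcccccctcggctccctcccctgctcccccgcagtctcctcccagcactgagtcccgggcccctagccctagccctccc
Col3a1: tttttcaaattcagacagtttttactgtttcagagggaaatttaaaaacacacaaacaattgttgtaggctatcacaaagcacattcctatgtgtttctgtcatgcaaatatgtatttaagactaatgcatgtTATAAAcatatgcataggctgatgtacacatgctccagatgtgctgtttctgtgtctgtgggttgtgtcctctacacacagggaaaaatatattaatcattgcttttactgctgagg

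The Col1a2 window held 2 matches to GGGCGG and 0 to TATAAA, and the Col3a1 window held 0 and 1. Of the 44 genes, 35 had a window in the table, 38 windows in all. GGGCGG was found in 22 of these 38 windows (57.9%), against 32.7% of the 32851 windows of all genes cut to the same length. By class it was in 6 of 8 fibrillar, 4 of 8 basement membrane and 12 of 22 other windows. TATAAA was in 5 of the 38 (13.2%), against 12.4% of all. A match is a description of the letters and not of a bound site.

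The comparison of treated with untreated arrays asked how mTORi-HDL altered these transcripts. Most collagen genes differed little between the groups: 42 of the 44 had a log2 change smaller than 0.5 in size, and so did 73.3% of all genes. In limma's test 0 of the 44 passed an adjusted p of 0.05, as did 0% of all genes, with a smallest adjusted p of 0.787 among the collagens. Col1a2 was the 1 collagen with an unadjusted p under 0.05 (limma), in the higher direction, where 1.57% of all genes were higher and 3.07% lower at that level. By sign, 39 collagens were higher and 5 lower over all 6 arrays, with a median change of 0.20 against 0.08 for all genes, of which 58.2% were higher. Without mTORi-HDL 1 the signs were nearly even, 24 higher and 20 lower, and the median was 0.02 against -0.03 for all genes, of which 46.6% were higher. These shares are the background of the sign counts in the classes and lists that follow. In all, 15 of the 44 changes turned their sign when that array was left out, as did 29.1% of all genes. The adjusted p-values without it again gave 0 collagens and 0% of genes, and Col1a2 was again the 1 collagen under an unadjusted 0.05, beside 3.47% of genes higher and 3.51% lower.

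**Figure D1:**
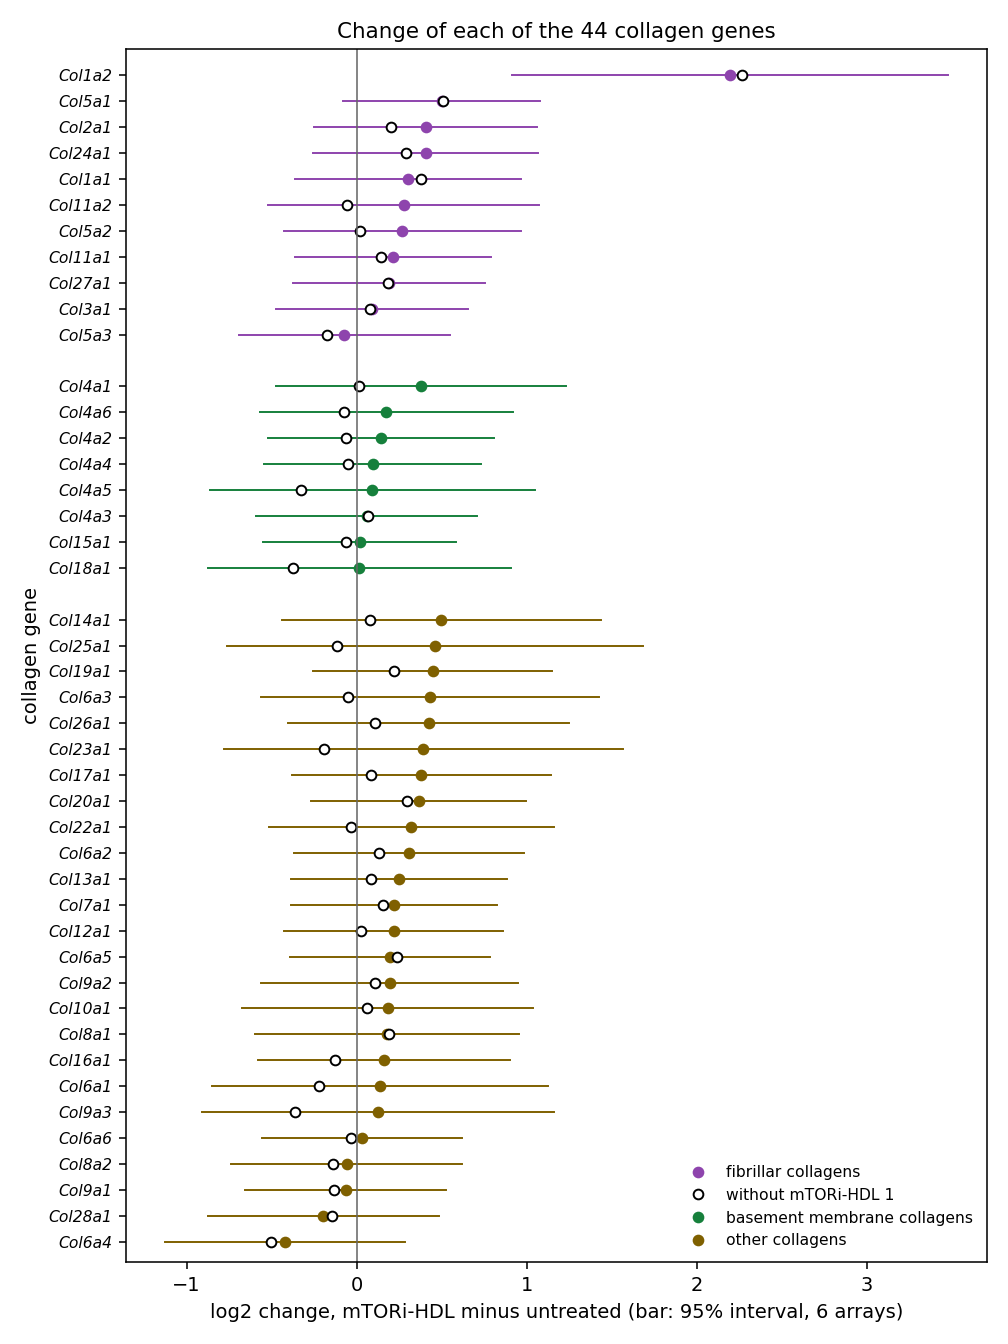
Change of each of the 44 collagen genes, mTORi-HDL minus untreated on the log2 scale (x axis), by class (y axis), with limma's estimate and 95% interval over 6 arrays as filled points and bars and the estimate without mTORi-HDL 1 as open points. Col1a2 is the gene whose interval lies clear of 0, and most open points of basement membrane and other chains lie to the left of the filled ones.

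The fibrillar chains were where treated and untreated arrays separated most often. In 6 of the 11 all treated arrays read above all untreated ones, and in 0 below, where 5.37% of all genes separated as higher and 5.53% as lower. The 6 were Col1a2, Col5a1, Col2a1, Col24a1, Col11a1 and Col27a1. Without mTORi-HDL 1 the count was 6 of 11 again, against 9.75% of all genes higher and 12.5% lower. Among basement membrane chains 0 of 8 and among the other chains 1 of 25, Col20a1, separated upward over 6 arrays. Outside Col1a2 these separations were small, with log2 changes of 0.19 to 0.50. None of them passed the test over all genes. The count of 6 fell to 4 when the arrays were centred on their medians or normalized by cyclic loess, and to 4 with the other probe set of the genes that have 2. Col24a1 and Col11a1 had dim probe sets, below the median brightness of all genes. Among genes above that median 4 of 8 fibrillar chains separated upward, against 3.96% of all such genes. Levels of different genes were not compared, since probe sets differ in brightness.

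Col1a2, which encodes the second chain of type I collagen, had the largest difference. Its brightest probe set (17548532) read 7.72, 7.72 and 8.14 on treated arrays 1 to 3 and 4.36, 6.17 and 6.47 on untreated arrays 1 to 3. The groups did not overlap, and the untreated arrays were spread over more than 2 log2 units, with untreated 1 the lowest. The means were 7.86 ± 0.24 and 5.66 ± 1.14 (SD, n = 3 each). The log2 change was 2.19 (95% interval 0.92 to 3.47) and did not pass over all genes (limma, adjusted p = 0.787). Over the other settings run that adjusted p lay between 0.224 and 0.9998. Leaving out untreated 1 lowered the change to 1.54, and leaving out mTORi-HDL 1 gave 2.26.

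A second probe set of Col1a2 (17455801) did not show this difference. It read 4.91, 4.54 and 4.58 on treated and 4.76, 4.24 and 4.71 on untreated arrays, so the groups overlapped. Its log2 change was 0.10 ± 0.28 (SE), and -0.01 without mTORi-HDL 1. The gap between the 2 probe sets was 2.81, 3.18 and 3.55 on treated and -0.41, 1.93 and 1.75 on untreated arrays. The changes at the 2 probe sets differed by 2.09, and the gaps did not overlap between groups (exact permutation test over arrays, two-sided, p = 0.1, the smallest that 3 against 3 allows). This test was chosen after the values were seen. Of the 1082 genes with more than 1 probe set, 22 (2.03%) had changes at their 2 brightest sets that differed by at least as much, and the median difference was 0.34. Which part of the gene each set covers is not given in the sources used here. With the mean of both sets the change of Col1a2 was 1.15.

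**Figure D2:**
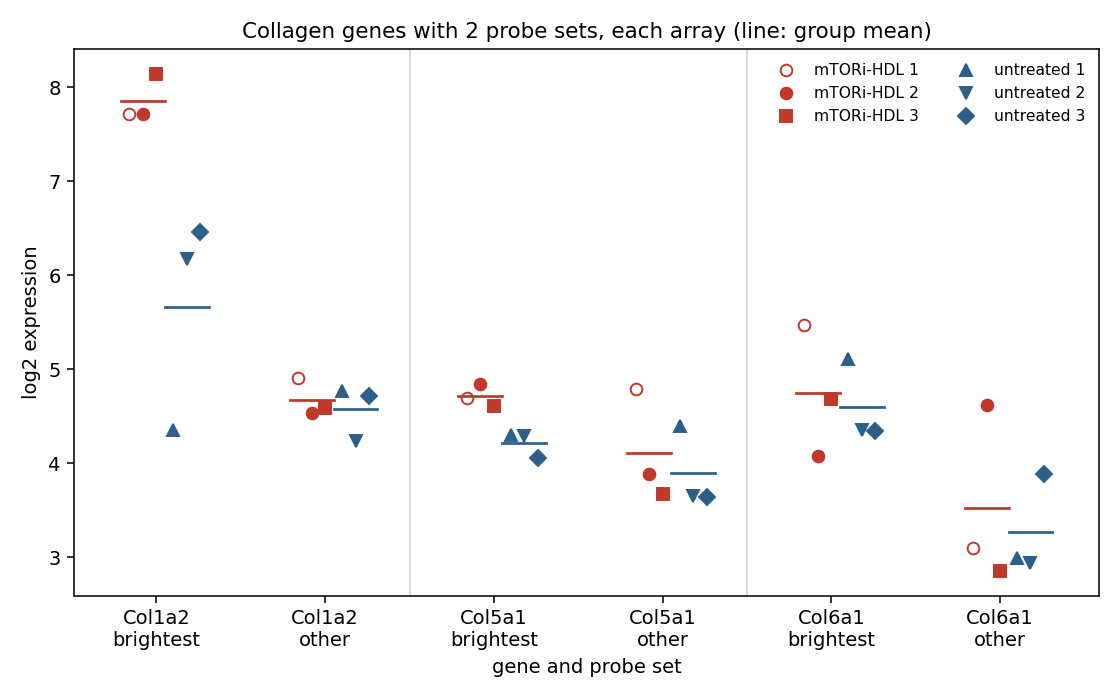
Log2 expression (y axis) of the 3 collagen genes with 2 single-gene probe sets (x axis), with 1 point per array and a line at each group's mean of 3. At the brightest set of Col1a2 the treated arrays lie at 7.72 to 8.14, above the untreated ones at 4.36 to 6.47, while at its other set both groups lie between 4.24 and 4.91.

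Col1a1, the partner of which the type I helix holds a pair of chains for each Col1a2 chain, read 5.31, 5.25 and 5.82 on treated and 5.40, 5.02 and 5.06 on untreated arrays. The highest value was on mTORi-HDL 3, and untreated 1 lay above the other treated arrays. Its log2 change was 0.30 (95% interval -0.36 to 0.97), and its difference from that of Col1a2 was not tested. Col3a1, the chain of type III collagen that is laid down early in repair, read 5.04, 5.09 and 4.93 on treated and 4.97, 5.00 and 4.82 on untreated arrays. Those groups overlapped, and the change was 0.09 (95% interval -0.47 to 0.65).

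Type V collagen sits in the core of type I fibrils and limits their width. Col5a1 read 4.69, 4.84 and 4.61 on treated and 4.30, 4.29 and 4.06 on untreated arrays, without overlap. Its change of 0.50 ± 0.25 (SE) did not pass (limma, adjusted p = 0.890) and was 0.51 without mTORi-HDL 1. The second probe set of Col5a1 (17383350) read 4.79, 3.89 and 3.67 on treated and 4.40, 3.65 and 3.64 on untreated arrays, and there the groups overlapped, with changes of 0.22 over all arrays and -0.12 without mTORi-HDL 1. Col5a2 and Col5a3, its partner chains, had changes of 0.27 and -0.07, and their groups overlapped.

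Fibrillar chains known mainly from cartilage were among the small separations. Col2a1, the chain of type II collagen, read 5.50, 4.94 and 4.83 on treated and 4.72, 4.71 and 4.62 on untreated arrays, with the highest value on mTORi-HDL 1 and a change of 0.20 without it. Col11a1 read 3.70, 3.49 and 3.49 against 3.22, 3.36 and 3.46. The lowest treated and the highest untreated array of Col11a1 nearly met. Its partner Col11a2 overlapped, with a change of 0.28 that was -0.05 without mTORi-HDL 1.

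The remaining fibrillar chains, of types XXIV and XXVII, separated as well. Col24a1 read 4.07, 3.72 and 3.71 on treated and 3.62, 3.07 and 3.59 on untreated arrays, and untreated 2 was the lowest. Col27a1 read 4.91, 4.92 and 4.86 against 4.84, 4.57 and 4.72. Neither change passed, at 0.41 and 0.19 over all arrays.

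**Figure D3:**
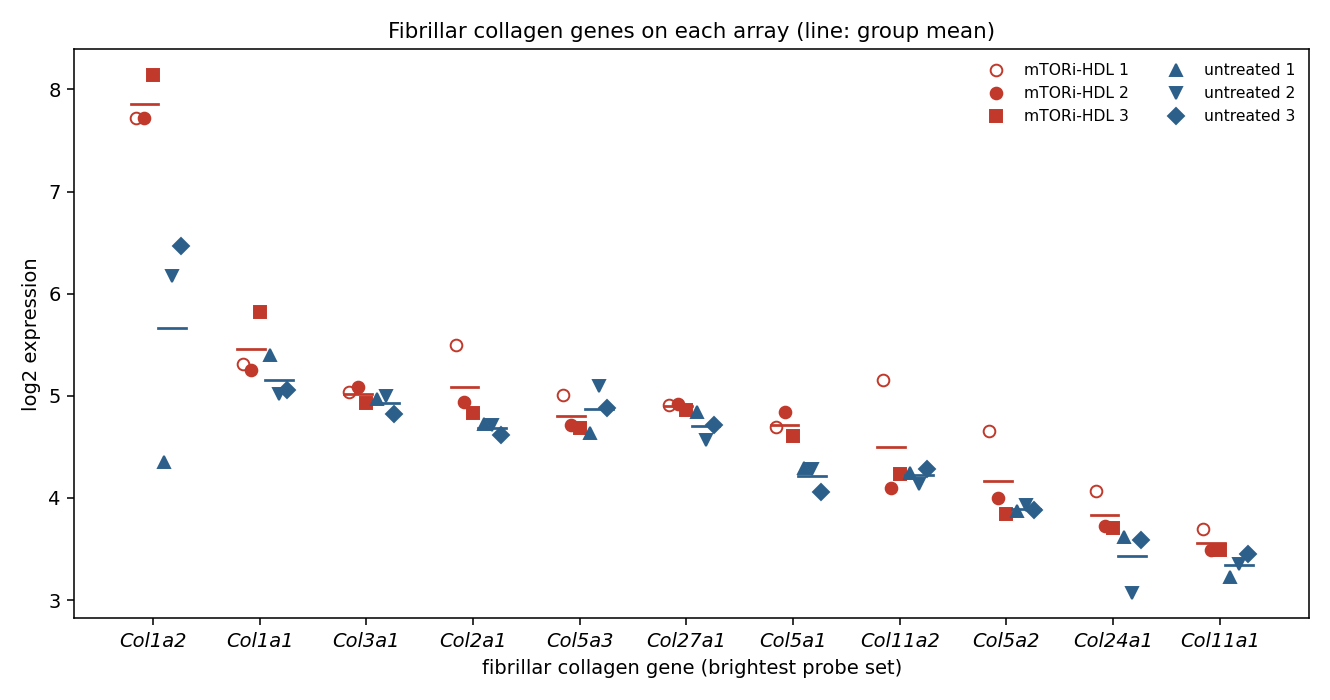
Log2 expression (y axis) of the 11 fibrillar collagen genes (x axis) on each array, with a line at each group's mean of 3. The treated arrays of Col1a2 lie at 7.72 to 8.14, clear of the untreated ones, the groups of 5 further genes are apart by less, and the open circle, mTORi-HDL 1, is the highest point in 5 of the 11.

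Basement membrane chains read high mainly on 1 treated array. All 8 had a positive change over 6 arrays, between 0.02 and 0.38, and 7 of them were highest on mTORi-HDL 1. Without that array 2 were higher and 6 lower, with a median of -0.06. Col18a1 was then the 1 of the 8 that separated as lower, as did 12.5% of all genes. Col4a1 and Col4a2 encode the chains of the common type IV network and share a promoter region, from which they are read in opposite directions. Col4a1 read 5.41, 4.42 and 4.21 on treated and 4.23, 4.20 and 4.47 on untreated arrays. Col4a2 read 4.40, 3.88 and 3.71 against 3.99, 3.81 and 3.77. In both genes mTORi-HDL 1 was the highest and the other 5 arrays were mixed. Their changes without it were 0.01 (95% interval -0.51 to 0.54) and -0.06 (-0.57 to 0.45).

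The type IV chains of specialised membranes, best known from kidney, gave the same picture. Col4a3 read 4.07, 4.36 and 3.84 on treated and 4.18, 3.77 and 4.14 on untreated arrays. Its neighbour Col4a4 read 3.97, 3.48 and 3.60 against 3.79, 3.58 and 3.40. Treated and untreated arrays were mixed in both. Col4a5 read 4.84, 3.65 and 3.51 against 4.14, 3.59 and 4.0, and Col4a6 read 4.21, 3.25 and 3.69 against 3.44, 3.72 and 3.47. Both were highest on mTORi-HDL 1, and none of the 4 differed by more than 0.18 over all arrays. Col18a1, whose end fragment is endostatin, read 5.38, 4.24 and 4.18 on treated and 4.67, 4.34 and 4.73 on untreated arrays, so that its change was 0.02 with and -0.37 without mTORi-HDL 1. Col15a1, its relative, had a change of 0.02 (95% interval -0.55 to 0.59).

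Of the 25 other chains, 21 were higher over 6 arrays and 13 without mTORi-HDL 1, with medians of 0.22 and 0.03. Type VI collagen forms the beaded filaments around cells and is widely made by fibroblasts. Col6a1 read 5.47, 4.07 and 4.69 on treated and 5.11, 4.36 and 4.34 on untreated arrays, and Col6a2 read 4.88, 4.61 and 4.09 against 4.21, 4.21 and 4.24. Col6a3 read 5.29, 3.77 and 3.93 against 3.88, 3.94 and 3.87. All 3 were highest on mTORi-HDL 1, and without it their changes were -0.22, 0.13 and -0.05. The second single-gene probe set of Col6a1 overlapped as well, with a change of 0.25. Col6a4, the member of this family with the lowest change of all 44, read 3.48, 2.99 and 3.46 against 4.12, 3.66 and 3.43, a change of -0.42 (95% interval -1.13 to 0.28).

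Fibril-associated chains sit on the surface of fibrils and have no cross-banded fibril of their own. Of 9 measured, 8 were higher over 6 arrays and 5 without mTORi-HDL 1. Col20a1 was the 1 that separated upward, at 5.14, 4.88 and 4.98 on treated and 4.71, 4.88 and 4.31 on untreated arrays. The lowest treated and highest untreated value of Col20a1 were equal at this rounding. Col9a2 read 6.49, 6.19 and 6.26 against 6.69, 5.90 and 5.77. Col12a1 and Col14a1, which are found in dense connective tissue, had changes of 0.22 and 0.50 that became 0.03 and 0.08. Col16a1 and Col9a3 separated as lower without mTORi-HDL 1, at -0.13 and -0.36, and 12.5% of all genes did so too.

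Transmembrane chains carry a collagen stalk on the cell surface. All 4 were higher over 6 arrays, with a median of 0.39, and 2 of 4 without mTORi-HDL 1, with a median of -0.02. Col13a1 read 5.38, 4.79 and 4.97 on treated and 4.83, 4.87 and 4.68 on untreated arrays. Col23a1 and Col25a1 read 6.05 and 5.71 on mTORi-HDL 1 and no more than 4.61 on any other array. The short-chain network genes Col8a1, Col8a2 and Col10a1 had changes of 0.18, -0.06 and 0.18. Col7a1, which forms the anchoring fibrils of skin, had 0.22. Col26a1 read 5.97, 4.99 and 5.07 against 5.00, 4.59 and 5.17, and Col28a1 had a change of -0.20.

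The class medians on single arrays show the same contrast. Measured from the mean of the untreated arrays, the median of the 11 fibrillar chains was 0.48, 0.16 and 0.15 on treated arrays 1 to 3, against 0.01 to 0.04 on untreated arrays. Without Col1a2 the values were 0.42, 0.15 and 0.15. For basement membrane chains the medians were 0.61, -0.09 and -0.12, and for the other chains 0.60, -0.01 and -0.00. The median over all genes was 0.27 on mTORi-HDL 1 and -0.03 on both other treated arrays. Each untreated array was part of the mean from which it was measured, which draws the untreated medians towards that mean. On this measure treated arrays 2 and 3 lay above the untreated ones in the fibrillar class and within or below them in the other classes. No test was made of these medians, and the members were not replicates of a condition.

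**Figure D4:**
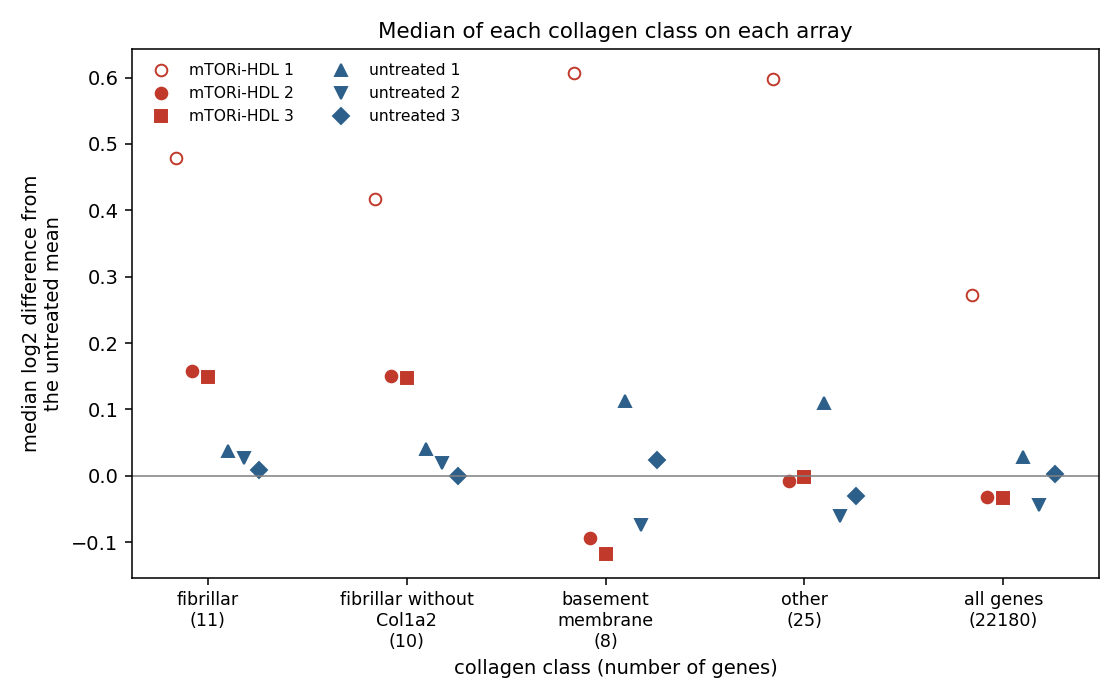
Median difference from the untreated mean (log2, y axis) over the genes of each collagen class and over all genes (x axis), with 1 point per array. mTORi-HDL 1 lies highest in every column, at 0.27 to 0.61, and the other treated arrays lie at 0.15 and 0.16 in the fibrillar class and between -0.12 and -0.00 in basement membrane chains, other chains and all genes.

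The genes of the machinery that makes collagen were divided in sign. Of 21 measured genes that modify, fold or export the chains (23 were listed), 8 were higher and 13 lower, with 0 at an unadjusted p under 0.05. At that level 1.57% of all genes were higher and 3.07% lower. The chaperone Serpinh1, which is dedicated to collagen, read 5.27, 4.34 and 4.88 on treated and 4.52, 4.25 and 4.65 on untreated arrays, so the groups overlapped. Without mTORi-HDL 1, 12 were higher and 9 lower, and the 1 at an unadjusted p under 0.05 was Tmem131, an export factor, at 0.85. Of all genes 3.47% were then higher and 3.51% lower at that level. With all arrays Tmem131 had -0.38.

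Among 14 measured genes of procollagen cleavage, cross-linking and fibril order (17 listed), 10 were higher over 6 arrays and 7 without mTORi-HDL 1, with medians of 0.25 and 0.06. Over 6 arrays 0 had an unadjusted p under 0.05, beside 1.57% of all genes higher and 3.07% lower. Postn, periostin of activated fibroblasts, read 2.80, 4.22 and 6.46 on treated and 2.18, 3.16 and 2.63 on untreated arrays, so that mTORi-HDL 1 lay within the untreated range. Sparc, a collagen-binding protein, read 5.41, 6.27 and 6.22 against 5.30, 5.56 and 5.52. Without mTORi-HDL 1 the changes of Postn and Sparc were 2.68 and 0.79, and these with Adamts14, a procollagen proteinase at 1.05, were the 3 at an unadjusted p under 0.05. Of all genes 3.47% were then higher and 3.51% lower at that level. None of the 3 passed over all genes. The cross-linking enzyme Lox had a change of 0.28, and of -0.00 without that array.

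Of 10 collagen receptors measured (11 listed), 8 were lower over 6 arrays and 6 without mTORi-HDL 1. Among them Itga1, the integrin chain that binds type IV collagen, was lower and Mrc1, the mannose receptor that takes up collagen, was higher at an unadjusted p under 0.05. At that level 3.07% of all genes were lower and 1.57% higher. Itga1 read 4.56, 5.21 and 5.02 on treated and 5.97, 5.48 and 5.72 on untreated arrays, and Mrc1 read 4.85, 5.66 and 5.49 against 4.58, 3.25 and 4.60. The groups overlapped in neither gene, and neither passed over all genes (limma, adjusted p = 0.890 for both). Lair1, an inhibitory collagen receptor of leukocytes, read 4.48, 8.60 and 8.88 against 7.70, 7.63 and 6.71. Lair1 thus had a change of -0.03 with and of 1.39 without mTORi-HDL 1, where it joined these 2 at an unadjusted p under 0.05. Of all genes 3.47% were then higher and 3.51% lower at that level.

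Of 9 genes that break collagen down, 7 were higher over 6 arrays and 6 without mTORi-HDL 1. Mmp13, a collagenase that cuts fibrillar helices, was the 1 at an unadjusted p under 0.05, beside 1.57% of all genes higher and 3.07% lower. Mmp13 read 4.42, 3.11 and 5.10 on treated and 3.23, 2.63 and 2.48 on untreated arrays, so that mTORi-HDL 2 lay below untreated 1. Mmp14, a membrane-bound collagenase, read 4.53, 7.58 and 7.48 against 6.29, 7.13 and 6.41. Its change was -0.08 with and 0.92 without mTORi-HDL 1, and without it Mmp14 was the 1 gene of this list at an unadjusted p under 0.05. Of all genes 3.47% were then higher and 3.51% lower at that level. Lair1, Mmp14, Tmem131 and Adamts14 were chosen after their values were seen.

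Markers of fibroblasts were mostly higher on the treated arrays. Those of cardiomyocytes were mostly higher in group mean, but untreated 1 lay among the treated arrays. Those of endothelial cells were mostly higher only with mTORi-HDL 1 included. The mean log2 level of 14 fibroblast markers other than collagens was 4.57 to 4.98 on treated and 4.11 to 4.27 on untreated arrays, and 12 of the 14 were higher, with and without mTORi-HDL 1. Dcn, decorin, read 6.67, 8.22 and 7.14 against 5.29, 5.38 and 4.70, and Lum, lumican, read 5.57, 5.65 and 4.08 against 3.09, 3.58 and 3.34. Both separated, where 5.37% of all genes separated as higher and 5.53% as lower. Both had an unadjusted p under 0.05, and at that level 1.57% of all genes were higher and 3.07% lower. Neither passed over all genes (limma, adjusted p = 0.622 for Dcn and 0.832 for Lum). Pdgfra and Tcf21, markers that define cardiac fibroblasts, overlapped, with changes of 0.47 and 0.51. Thy1, which T cells also express, was lower on all treated arrays, with a change of -1.97.

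The 10 mural cell markers had mean levels of 4.47 to 4.73 on treated and 4.27 to 4.46 on untreated arrays, with 6 higher over 6 arrays and 5 without mTORi-HDL 1, among them Rgs5 at 4.24, 4.64 and 4.15 against 3.11, 3.09 and 3.36. The 12 endothelial markers had 4.16 to 4.27 against 3.87 to 4.26, with 10 higher over 6 arrays and 6 without mTORi-HDL 1. Eng, a co-receptor for TGF-beta ligands, read 4.58, 5.60 and 5.98 against 4.50, 3.40 and 4.32, without overlap. Flt1, another of these markers, separated as lower, at 3.27, 3.88 and 3.65 against 4.01, 4.66 and 4.11. The 12 thus held 1 separated gene in each direction, where 5.37% of all genes separated as higher and 5.53% as lower. The 12 cardiomyocyte markers had 4.58 to 5.00 against 4.09 to 4.68, with 11 higher over 6 arrays and 9 without mTORi-HDL 1. On untreated 1, 11 of them lay above the untreated mean, and on mTORi-HDL 2 and 3 it was 9 and 8. The troponin genes Tnnc1 and Tnnt2 had changes of 1.24 and 1.17, each with an unadjusted p under 0.05 (limma). At that level 1.57% of all genes were higher and 3.07% lower. Neither gene passed over all genes (limma, adjusted p = 0.890 for both). Tnnc1 read 5.76, 6.31 and 7.71 against 5.80, 4.99 and 5.26, and Tnnt2 read 5.60, 7.30 and 6.24 against 5.83, 4.90 and 4.91. In both genes untreated 1 lay above mTORi-HDL 1, so the groups overlapped. The deposited values hold no detection call, so that absence of a marker cannot be read from them. The lists of 6 epicardial and 3 measured Schwann cell markers overlapped between groups, at 3.80 to 4.14 against 3.85 to 4.11 and at 3.22 to 4.41 against 3.38 to 3.54. The part of these cell types in the collagen values was not tested, and donor and recipient transcripts of the collagens and these markers were not told apart.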

How the data were processed

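Macrophage RNA of 3 treated and 3 untreated samples, 15 ng each per the labels' protocols, was amplified and hybridised to 1 array per sample. The deposited values are log2 expression. The submitters' processing notes name RMA and Affymetrix Expression Console. RMA corrects background, quantile-normalizes and summarises probes. Tool versions, build, probe-set filters and sort markers are not given in the sources used here. Of 41345 probe sets, 23521 had 1 gene symbol in the platform annotation, 1814 several and 16010 none. Those with 1 symbol were used, the brightest per gene, with no filter on dim genes. Arrays have no read depth.

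Groups were compared across all 22180 genes with limma (version 3.58.1, under R 4.3.3; lmFit, then eBayes, with no term but group, which leaves 4 residual degrees of freedom), two-sided, with Benjamini-Hochberg adjustment over all genes. The fit was run on simulated data with independent noise, the same spread on every array for a gene, and large planted changes. That check does not cover an array that stands apart, such as mTORi-HDL 1, or small changes. A probe set's brightness is not an amount of RNA, so levels of different genes were not compared. Brightness served only to pick probe sets, to filter genes in the alternatives and to pick which genes' values to print. Classes and lists were described by counts and medians beside those of all genes, and no set test was made. The collagen members and all lists were chosen with earlier results of these data known. Values on every array are given for collagens with an unadjusted p under 0.05 (with or without mTORi-HDL 1), with groups that did not overlap, among the 6 brightest, or in the pairs named, and for up to 4 genes per other list. Col18a1 and Col6a4, Serpinh1, Csf1r, Lox, Pdgfra and Tcf21 were added after their values were seen, as were the 1-line values of the remaining collagens.

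Alternatives were median centring, quantile normalization, cyclic loess, filters on brightness, trend and robust eBayes, array weights, a replicate block, leaving out each array, averaging the probe sets of a gene, 2 settings without mTORi-HDL 1, an adjusted p of 0.1 and type IV chains alone. The other probe set of the 3 collagens with 2 was added after the data were seen.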

Additional observations from a re-analysis of the deposited data

How the results depend on the processing

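The 6 arrays, and the small differences of most collagens against the spread between arrays, limit what could be detected. No alternative put a collagen past an adjusted p of 0.05 or 0.1. The fibrillar median stayed positive in every alternative run, at 0.17 to 0.41. The basement membrane median lay between -0.18 and 0.21 and was -0.06 under cyclic loess and -0.03 with array weights, and the median of the other chains lay between 0.03 and 0.34. With type IV chains alone the basement membrane median was 0.12. Under array weights 1 gene of all, H2bc12, passed an adjusted p of 0.05.

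At an unadjusted p under 0.05 the count of collagens was 1. It was 2, Col1a2 and Col5a1, with array weights and without mTORi-HDL 1 under cyclic loess, and 0 with the other probe set of the 3 genes with 2. Groups did not overlap for 7 collagens, for 7 to 12 when 1 array was left out (12 without mTORi-HDL 2 and 11 without untreated 1), and for 12 without mTORi-HDL 1 under cyclic loess. These counts take both directions. Of the 12 under cyclic loess, 9 were higher and 3 lower. Without mTORi-HDL 1 alone 7 were higher and 3 lower, beside 9.75% and 12.5% of all genes. Without untreated 3 it was 8 and 1, and without mTORi-HDL 2 or untreated 1 all were higher. Leaving out 1 array also raised the share of all genes that separated as higher, from 5.37% to between 8.76% and 12.9%. That share was 12.8% without mTORi-HDL 2, 12.1% without untreated 1 and 11.6% without mTORi-HDL 1 under cyclic loess. The count of collagens was 6 under median centring, cyclic loess and with probe sets averaged per gene, 5 of 23 above the median brightness, and 5 with the other probe sets, 4 of them fibrillar. In those settings 3.96% to 5.72% of all genes separated as higher. Deviations of same-numbered arrays from their group means correlated at 0.136, 0.135 and -0.024. Differently numbered arrays were not compared in this way, so these values cannot tell whether the numbers pair the samples. With a replicate block 1 collagen, Col1a2, was under an unadjusted 0.05, and its adjusted p was 0.707 (limma).

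Of the 67 genes whose changes were recomputed, 24 changed sign somewhere, and the cause was not tested. Median centring turned Col4a3 (-0.013), Col15a1 (-0.053) and Col18a1 (-0.055). Quantile normalization turned Col4a3 (-0.053), Col4a4 (-0.022), Col5a3 (0.045) and Col15a1 (-0.086). Cyclic loess turned Col4a2 (-0.021), Col4a3 (-0.093), Col4a4 (-0.087), Col4a5 (-0.068), Col4a6 (-0.0060), Col15a1 (-0.14), Col18a1 (-0.043), Tmem131 (0.25), Lair1 (0.60), Mmp14 (0.45) and Csf1r (0.34). Array weights turned Col4a2 (-0.044), Col4a4 (-0.015), Col4a5 (-0.30), Col6a1 (-0.13), Col11a2 (-0.0055), Col15a1 (-0.046), Col18a1 (-0.34), Col9a3 (-0.28), Col16a1 (-0.097), Col23a1 (-0.15), Col25a1 (-0.0085), Tmem131 (0.64), Lair1 (1.26), Mmp14 (0.81) and Csf1r (0.86). Leaving out mTORi-HDL 1 under cyclic loess turned Col4a2 (-0.037), Col4a4 (-0.031), Col4a5 (-0.31), Col4a6 (-0.054), Col6a1 (-0.19), Col6a3 (-0.026), Col11a2 (-0.024), Col15a1 (-0.037), Col18a1 (-0.34), Col9a3 (-0.33), Col16a1 (-0.099), Col23a1 (-0.16), Col25a1 (-0.090), Tmem131 (0.88), Lair1 (1.42), Mmp14 (0.96) and Csf1r (1.04). Leaving it out among genes above the median brightness turned Col6a1 (-0.22), Col11a2 (-0.054), Col18a1 (-0.37), Col9a3 (-0.36), Col16a1 (-0.13), Col23a1 (-0.19), Col25a1 (-0.12), Tmem131 (0.85), Lair1 (1.39), Mmp14 (0.92) and Csf1r (1.03).

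When arrays were left out in turn, Col4a2 ranged from -0.060 to 0.28, Col4a3 from -0.078 to 0.18, Col4a4 from -0.050 to 0.19, Col4a5 from -0.33 to 0.34, and Col4a6 from -0.072 to 0.41. Col15a1 ranged from -0.062 to 0.068, Col18a1 from -0.37 to 0.23, Col5a3 from -0.19 to 0.040, Col11a2 from -0.054 to 0.48, Col6a1 from -0.22 to 0.47, and Col6a3 from -0.050 to 0.71. Col8a1 ranged from -0.081 to 0.43, Col8a2 from -0.25 to 0.13, Col9a3 from -0.36 to 0.40, Col16a1 from -0.13 to 0.31, Col23a1 from -0.19 to 0.76, Col25a1 from -0.12 to 0.76, and Col28a1 from -0.36 to 0.021. Of the list genes, Tmem131 ranged from -1.22 to 0.85, Adamts14 from -0.25 to 1.05, Lox from -0.0025 to 0.45, Lair1 from -0.81 to 1.39, Mmp14 from -0.61 to 0.92, and Csf1r from -1.01 to 1.03.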

Other observations

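Another probe set listed Col6a1 together with 3 other genes, among them the ribosomal protein gene Rps21, and therefore entered no comparison. It read 10.30, 10.16 and 10.09 on treated and 9.94, 10.22 and 9.94 on untreated arrays, and the groups overlapped. Its signal cannot be assigned to Col6a1.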
